A study of Mus musculus with 16 samples.

Results

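The gene of the succinate receptor, Sucnr1, and 9 genes that make, use or carry succinate were followed in RNA sequencing libraries of the mouse retinal pigment epithelium (RPE), a sheet of pigmented cells that supports the photoreceptors. The genes were picked by name and matched through their Ensembl identifiers, and they are 10 of the 51912 genes in the count table. They are the receptor, the 4 subunits of succinate dehydrogenase (Sdha, Sdhb, Sdhc, Sdhd), the 3 subunits of succinyl-CoA ligase (Suclg1, Suclg2, Sucla2), the oxoglutarate dehydrogenase gene Ogdh and the mitochondrial dicarboxylate carrier gene Slc25a10. The 9 metabolic genes averaged at least 1 CPM (counts scaled to a library of 1e6) over all libraries and were tested with the other genes above that level, 15380 in all. Sucnr1 did not reach it.

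The mice were 40-week-old males on a C57BL/6 background. Their genotype was wild type or Sucnr1 knockout, and within a genotype some were exposed to hydroquinone, a pro-oxidant, and the others received no treatment. Each of the 4 groups (untreated and exposed wild type, untreated and exposed knockout) had 4 libraries, each from 1 eye, and the titles trace them to 2, 4, 3 and 4 mice, whereas the protocol counts 4 animals in every group. The construction of the knockout allele and the dose and route of hydroquinone are not given in the sources used here. Totals ran from 21113549 to 35332444 counts per library. The RPE was lifted from the eyecup with forceps, and all 12 RPE markers were present in each library, with a mean log2(CPM + 1), called a score below, of 9.36 to 10.2. All 15 rod photoreceptor markers were present as well, at scores of 2.77 to 9.85. Their summed level was 1114 to 10503 CPM without treatment and 551 to 4712 with hydroquinone in wild type, and 362 to 25346 and 262 to 23080 in knockout. The 4 corneal epithelium markers had scores of 8.56 to 11.7. They summed to 2643 to 10827 CPM in untreated and 2357.5 to 24067 in exposed wild type, and to 3937 to 7750.5 and 1980 to 7501.5 in knockout. The 4 oligodendrocyte markers had scores of 3.16 to 9.56. The part of RNA from these other tissues in the group differences below was not tested.

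Succinate is an intermediate of the citrate cycle. Oxoglutarate dehydrogenase makes succinyl-CoA, succinyl-CoA ligase turns it into succinate while forming ATP or GTP, and succinate dehydrogenase, which is also complex II of the respiratory chain, oxidises succinate to fumarate. Succinate that leaves the cell can bind SUCNR1, a G protein-coupled receptor at the plasma membrane. In the eye, the retina has been reported to export succinate and the RPE to take it up and oxidise it.

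Promoter sequence is a feature that the choice of genes did not use. The 250 bases upstream of each RefSeq start (GRCm38.p6) were read for 9 of the 10 genes (all but Sdhc). In 4 of these 9 genes (Sdha, Sdhd, Sucla2, Ogdh) a window held the letters GCGCANGCG on either strand. They are the core of the motif of nuclear respiratory factor 1 (NRF1), a regulator of genes for mitochondrial proteins. Ogdh alone had several windows. Those at chr11:6291347-6291596, chr11:6291356-6291605, chr11:6291409-6291658 and chr11:6291920-6292169 held no match. The same letters stood in 5.86% of 27025 mouse genes, a gene counting once if any of its windows matched. The matches are shown with 10 bases on each side, 5′ to 3′ on the strand of the gene, with the motif in capitals. The 3 Sdha matches lie at chr13:74350320-74350348, chr13:74350277-74350305 and chr13:74350232-74350260 on the minus strand, in a window that overlaps annotated exons of Sdha and its neighbour Ccdc127. The Sdhd match is at chr9:50603910-50603938 on the minus strand, in a window that overlaps an exon of Timm8b. The Sucla2 match, at chr14:73552760-73552788, and the Ogdh match, at chr11:6292533-6292561, are on the plus strand in windows that overlap exons of these genes. Both lie upstream of a RefSeq start but inside the genes as annotated by GENCODE, which start at 73525319 and 6291633. The proximal Sdha match also lies inside its annotated gene, which starts at 74350280 on the minus strand.
Sdha, distal: cgtttacaggGCGCAGGCGcaccaccact
Sdha, middle: ggggcgtgttGCGCAGGCGcagaatcttc
Sdha, proximal: gcgactcggtGCGCAAGCGcagtctgtcg
Sdhd: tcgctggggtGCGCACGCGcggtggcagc
Sucla2: tgcgtctctgCGCCTGCGCggtgcccagg
Ogdh: taggtgttgtGCGCATGCGtaactcaact
The Sucnr1 window, at chr3:60081619-60081868 on the plus strand, overlaps no annotated exon and is shown for contrast, since it held no match.
Sucnr1: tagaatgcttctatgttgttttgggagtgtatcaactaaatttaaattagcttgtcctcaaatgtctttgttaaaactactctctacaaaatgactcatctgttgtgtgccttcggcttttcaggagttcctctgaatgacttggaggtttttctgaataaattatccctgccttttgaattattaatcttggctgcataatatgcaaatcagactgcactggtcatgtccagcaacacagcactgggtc
G and C made up 38% of the Sucnr1 window, and 8.71% of all genes had a lower share, whereas the windows of the other 8 genes ranged from 50% to 74% beside a median of 52.4% over all genes. Another motif, the core TGACNNNGC of the antioxidant response element, stood in the window of 1 of the 9 genes (Sucla2) and in 11.5% of all genes. A match of letters is a description and was not tied to binding.

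Sucnr1, the targeted gene, was close to absent from both genotypes. It lies at chr3:60081869-60087566 on the plus strand (GRCm38, as are all gene coordinates) and has 3 merged exons (ENSMUSG00000027762). The 4 untreated wild-type libraries held 10, 17, 0 and 1 counts, and the wild-type libraries with hydroquinone held 0, 0, 0 and 1. The untreated knockout libraries held 0, 0, 3 and 0 counts, and those with hydroquinone 0, 0, 1 and 0. The groups overlapped, and the libraries with 10 and 17 counts were the eyes of 1 untreated wild-type mouse, which gave 27 of the 29 wild-type counts. Pooled, Sucnr1 stood at 0.135 CPM in wild type (exact Poisson interval 0.0905 to 0.194) and at 0.0184 CPM in knockout (0.00502 to 0.0471). Without that mouse the wild-type libraries held 2 counts, or 0.0125 CPM (0.00152 to 0.0452). These 95% intervals cover counting error only, and a library's limit of 3 counts corresponds to 0.0849 to 0.142 CPM.

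Averaged over the eyes of a mouse, log2(CPM + 1) of Sucnr1 was 0.111 in 6 wild-type mice and 0.0161 in 7 knockout mice. Without the mouse with most counts, which was picked by these counts, the difference was -0.00208, a description and not a test. Over all mice the difference was -0.0952, which did not pass an exact permutation test over mice (2-sided p = 0.466). Sucnr1 thus did not tell the genotype labels apart at this depth. Whether the counted exons include the deleted part of the gene is not given in the sources used here. SUCNR1 is also known from macrophages and dendritic cells. The libraries of the mouse with 27 counts had macrophage scores of 6.07 and 6.08, the highest of the untreated wild-type group (5.56 to 6.08), while untreated knockout reached 6.39 and exposed wild type 6.62. Their dendritic cell scores were 3.73 and 3.83. The second was the highest of all untreated libraries (untreated knockout reached 3.73), while exposed wild type ran from 3.58 to 4.08. The same 2 libraries also had the highest skeletal muscle marker scores of their group, 8.68 and 8.58, while untreated knockout reached 8.71. Their oligodendrocyte scores were 9.56, the highest of all libraries, and 7.65. All 8 macrophage markers and the 4 tested of 5 dendritic cell markers were present in every library. The part of any of these cell types in the Sucnr1 counts was not tested. In RNA from a whole layer, fewer cells of a type and less RNA per cell cannot be told apart.

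**Figure D1:**
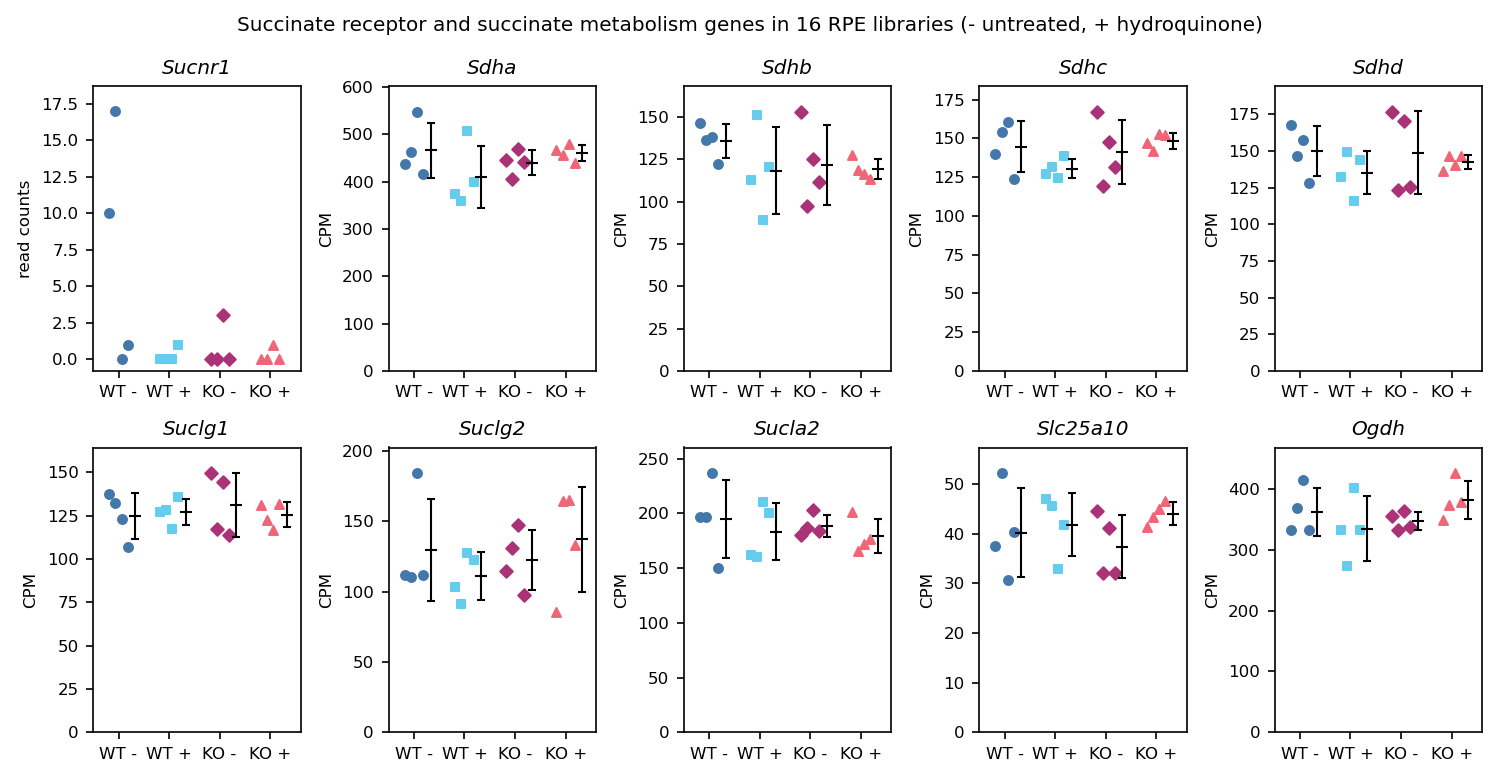
Levels of the 10 genes in 16 libraries, by group (WT wild type, KO knockout, - untreated, + hydroquinone). Each point is 1 library, and the vertical axis is read counts for Sucnr1 and CPM for the others. Black marks, drawn in the CPM panels only, are the mean ± SD of the 4 libraries in each group. The Sucnr1 counts of 10 and 17 stand alone, while the groups of the other genes overlap except for Sdhc between both hydroquinone groups.

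The metabolic genes were all well measured, and per kilobase a succinate dehydrogenase subunit led them. Per kilobase of the principal transcript, Sdha had the highest level, 153 ± 16.3 CPM per kilobase (SD, n = 16 libraries). Sdhd followed at 117 ± 14.2 and Sdhb at 108 ± 15.8. Ogdh (86.3 ± 9.16), Suclg1 (83.7 ± 7.52) and Sucla2 (83.6 ± 9.94) came next. Sdhc stood at 44.5 ± 4.46, Suclg2 at 37.1 ± 8.35 and Slc25a10 at 20.2 ± 3.11 CPM per kilobase. On this scale Sdhc was the one succinate dehydrogenase subunit below the ligase genes Suclg1 and Sucla2. Sucnr1 was last at 0.0484 ± 0.113. Neighbours in this order that lay within their SDs were Sdhd and Sdhb, the trio of Ogdh, Suclg1 and Sucla2, and Sdhc and Suclg2. Among tested genes with a length, 75.3% had a lower level per kilobase than Slc25a10 and 97.4% a lower one than Sdha. Lengths matter for this order: divided by all annotated exon bases, Sdhd (117) stood above Sdha (108) and Suclg1 (27.5) stood behind Sdhc (43.4). Ogdh (65.3) then stood above Sdhb (55.3). In CPM without division by length, Ogdh (356) was second to Sdha (444).

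None of the succinate dehydrogenase subunits passed the test in any comparison. Sdha encodes the flavoprotein that binds succinate (chr13:74322254-74350280, minus strand, ENSMUSG00000021577). Its level was 437, 462, 547 and 417 CPM in the untreated wild-type libraries and 374, 359.7, 506 and 400.25 with hydroquinone. In knockout it was 446, 406, 468 and 442 CPM untreated and 466, 457, 479.8 and 440.35 with hydroquinone. The highest wild-type library of each treatment exceeded every knockout library, and the ranges overlapped. Averaged over genotype, the log2 fold change of Sdha with hydroquinone was -0.06 (SE 0.08), and averaged over treatment that of the knockout was 0.04 (SE 0.08).

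Sdhb encodes the iron-sulphur subunit that passes electrons on (chr4:140961203-140979193, plus strand, ENSMUSG00000009863). It was at 146, 136, 139 and 122 CPM in untreated wild type and at 113, 151, 89.2 and 120.45 with hydroquinone. Untreated knockout libraries had 153, 97.5, 125 and 111 CPM, and those with hydroquinone 127, 119, 117 and 114. The 4 knockout libraries with hydroquinone were close together, and the wild-type libraries with hydroquinone spread from the lowest value of all to one of the highest. The log2 fold change of Sdhb with hydroquinone was -0.12 (SE 0.11), and that of the knockout was -0.07 (SE 0.11), each averaged over the other factor.

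Sdhc and Sdhd encode the membrane anchors (chr1:171127165-171150603, ENSMUSG00000058076, and chr9:50596357-50603812, ENSMUSG00000000171, both on the minus strand). Sdhc was at 139.9, 154, 161 and 124 CPM in untreated wild type and at 127, 132, 124 and 138 with hydroquinone. In knockout it was at 167, 119, 147 and 132 CPM untreated and at 147, 142, 153 and 152 with hydroquinone. Under hydroquinone the lowest knockout library therefore lay above the highest wild-type library. Sdhc was the only one of the 9 genes whose groups did not overlap in any comparison of a pair of groups, and in that comparison 2.33% of all tested genes did not overlap. The log2 fold change of Sdhc between knockout and wild type under hydroquinone was 0.19 (SE 0.11), which did not pass (edgeR, adjusted p = 1.00). Sdhd ranged from 128 to 168 CPM in untreated wild type, 116 to 149 in exposed wild type, 123 to 177 in untreated knockout and 137 to 147 in exposed knockout, and all 4 ranges overlapped.

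No subunit of succinyl-CoA ligase passed the test in any comparison, and the subunits varied between libraries to unlike degrees. Suclg1 encodes the alpha subunit that every form of the enzyme shares (chr6:73248382-73276911, plus strand, ENSMUSG00000052738). It was the steadiest of the 9 genes, with a coefficient of variation (CV, SD over mean) of 8.99% over the 16 libraries. It ran from 107 to 137 CPM in untreated wild type, 117 to 136 in exposed wild type, 114 to 149 in untreated knockout and 117 to 132 in exposed knockout. Suclg2 encodes the beta subunit of the GTP-forming enzyme (chr6:95473009-95718800, minus strand, ENSMUSG00000061838) and varied most, with a CV of 22.5%. The median CV of all tested genes was 19.9%, and the other 8 genes were below it.

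Suclg2 was at 112, 110.3, 184 and 111 CPM in untreated wild type and at 103, 90.8, 127 and 122 with hydroquinone. It was at 115, 131, 147 and 97.7 CPM in untreated knockout and at 85.4, 164, 165 and 133 with hydroquinone. The knockout hydroquinone group thus held both the lowest library of all and 2 of the 3 highest. Knockout against wild type under hydroquinone gave Suclg2 a log2 fold change of 0.31 (SE 0.22), with a 95% interval of -0.16 to 0.77. The interaction, that is the hydroquinone difference in knockout minus that in wild type, was 0.38 (SE 0.31). Both were within the spread of the libraries. Of the 50-base windows of Suclg2 transcripts, 16% also occur in Gm15163, which was at 0.67 to 3.57 CPM, so reads from the shared windows cannot be assigned to one of them from sequence alone.

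Sucla2 encodes the beta subunit of the ATP-forming enzyme (chr14:73525319-73596142, plus strand, ENSMUSG00000022110). It was at 197, 197, 237 and 149.97 CPM in untreated wild type and at 162, 159.9, 210.2 and 201 with hydroquinone. Untreated knockout libraries had 181, 186, 203 and 184 CPM, and those with hydroquinone 201, 166, 172 and 177. The highest and the lowest Sucla2 level both came from untreated wild type. The log2 fold change of Sucla2 with hydroquinone was -0.08 (SE 0.09), and that of the knockout was -0.04 (SE 0.09).

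Upstream and at the membrane, neither Ogdh nor Slc25a10 passed the test. Ogdh encodes the component of the oxoglutarate dehydrogenase complex that decarboxylates oxoglutarate (chr11:6291633-6356642, plus strand, ENSMUSG00000020456). It ran from 332 to 414 CPM in untreated wild type, 272.5 to 402 in exposed wild type, 332 to 363 in untreated knockout and 349 to 425 in exposed knockout. Slc25a10 exchanges succinate and malate for phosphate across the inner mitochondrial membrane (chr11:120491840-120499187, plus strand, ENSMUSG00000025792). It was at 37.5, 52.1, 30.7 and 40.3 CPM in untreated wild type and at 47.0, 45.5, 32.8 and 41.8 with hydroquinone. In knockout it was at 44.5, 32.0, 41.0 and 32.0 CPM untreated and at 41.3, 43.3, 44.9 and 46.6 with hydroquinone. The knockout libraries with hydroquinone were the least spread, and their highest value, 46.6 CPM, stood just above the highest untreated one, 44.5 CPM. Slc25a10 had the largest log2 fold change of the 9 genes with hydroquinone averaged over genotype, 0.15 (SE 0.11), and in knockout alone it was 0.24 (SE 0.16, edgeR, adjusted p = 1.00). Exons of the antisense gene Gm11788 overlap 228 bases of its exons and drew 14 counts in all libraries together, and the strand setting of the counting is not given in the sources used here.

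**Figure D2:**
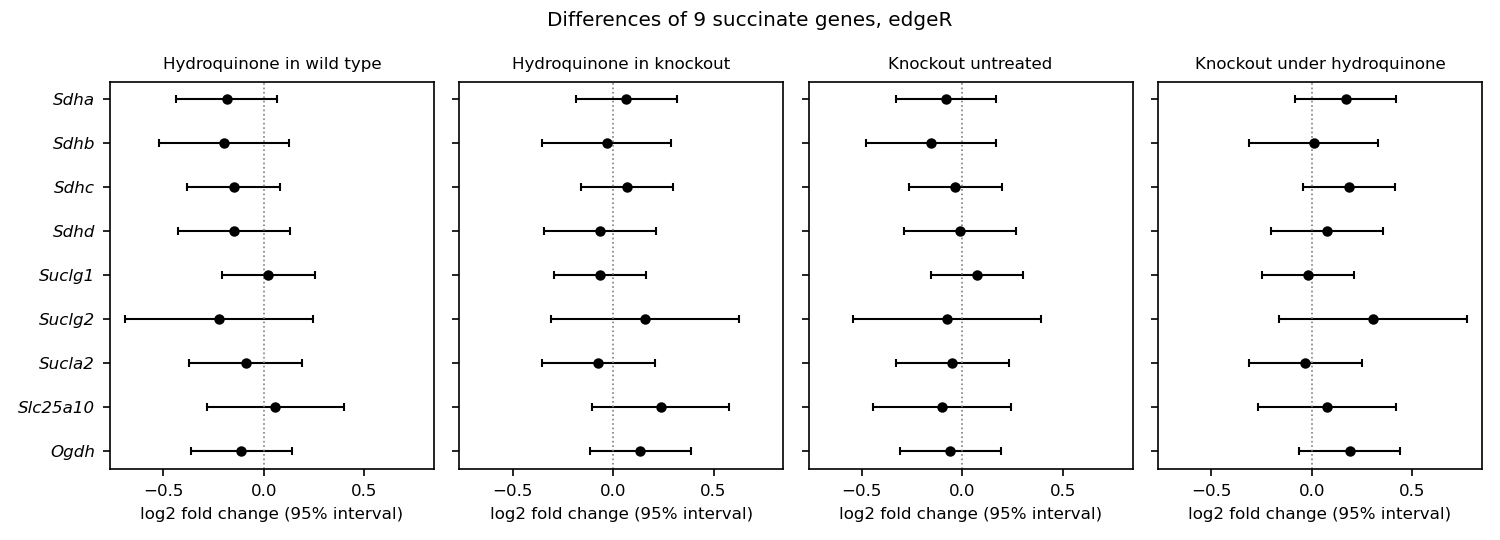
Log2 fold changes of the 9 metabolic genes in 4 comparisons, by edgeR. Points are estimates and bars 95% intervals, from left to right for hydroquinone against untreated in wild type and in knockout and for knockout against wild type untreated and under hydroquinone; every interval includes 0, and those of Suclg2 are the widest.

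Across the whole table, few genes passed the test, and none of the 9 was among them. With hydroquinone, 0.0065% of the 15380 genes passed an adjusted p below 0.05 in wild type (1 gene), 0.0455% in knockout (7 genes) and 0.0845% averaged over genotype (13 genes). The knockout comparisons, untreated, under hydroquinone and averaged over treatment, and the interaction each had 0 genes past the threshold, or 0%, by edgeR. An unadjusted p below 0.05 was found for 203, 643, 456 and 296 genes in these 4 comparisons, and DESeq2 passed 0, 3, 0 and 0. Of the 9 succinate genes, 0 passed in any of the 7 comparisons with edgeR or with DESeq2, and 0 had an unadjusted p below 0.05 with edgeR. The share of tested genes whose groups did not overlap was 2.92% for hydroquinone in wild type, 1.91% for hydroquinone in knockout and 1.05% for the knockout untreated, and 0 of the 9 genes were among them. P-values here measure the spread between libraries, some of which are eyes of the same mouse.

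The 95% intervals give a range for each difference. They come from the fit over libraries, in which eyes of the same mouse counted as separate. With hydroquinone averaged over genotype, the 95% intervals of the 9 genes lay between a fold of 0.777 and a fold of 1.31 (Suclg2 and Slc25a10). For the knockout averaged over treatment they lay between 0.811 (Sdhb) and 1.36 (Suclg2). In wild type, 7 of the 9 genes had a negative log2 fold change with hydroquinone, with a median of -0.15 beside -0.00020 over all tested genes. In knockout 5 of 9 were positive, with a median of 0.07 beside -0.0014. The interaction was positive for 8 of 9, with a median of 0.18 beside 7.1e-05, and 50.02% of all genes were positive. These comparisons share libraries and rest on small single-gene differences. Leaving out a single library put the median for hydroquinone in wild type between -0.22 and -0.05.

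The 9 genes did not vary as 1 block. Group-centred log2(CPM + 1) over the 16 libraries gave the highest Pearson's r for Sdhd and Suclg1 (0.87), Sdha and Ogdh (0.86) and Sdhb and Sdhd (0.83). Partners in an enzyme ranged from close to apart, with -0.29 for Sdha and Sdhb, -0.06 for Suclg1 and Suclg2 and 0.33 for Suclg1 and Sucla2. The alternative beta subunits Suclg2 and Sucla2 had 0.32. The lowest value, -0.49, was that of Sdha and Slc25a10. Sorted by coding length, the genes formed 2 sets. The 4 genes with 1299 to 3069 coding bases (Sdha, Ogdh, Sucla2, Suclg2) had an r of 0.32 to 0.86 in their 6 pairs. The 5 genes with 477 to 1038 coding bases (Sdhb, Sdhc, Sdhd, Suclg1, Slc25a10) had 0.38 to 0.87 in their 10 pairs. The 20 pairs between the sets ran from -0.49 to 0.42, with a median of -0.06. The pairs share libraries and depth, so these values are descriptions.

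**Figure D3:**
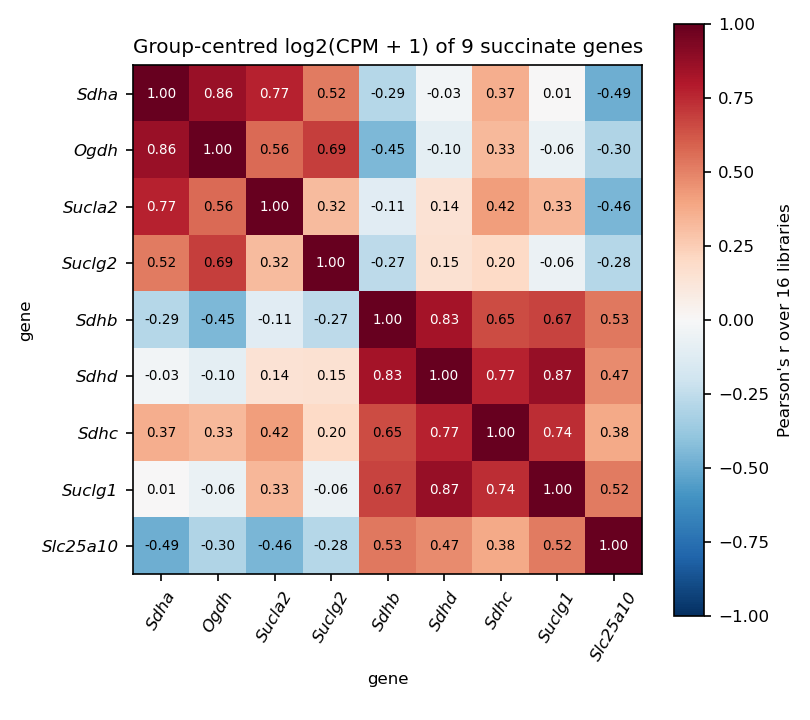
Pearson's r between the 9 metabolic genes over 16 libraries, on log2(CPM + 1) centred within each group. Rows and columns are genes, colours and printed values are r; the upper left block holds the 4 genes with longer coding sequences and the lower right block the 5 with shorter ones, and every negative value lies between the blocks.

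The ratio of Sdha to Sdhb moved with a library-wide index of gene length. The CPM ratio of these subunits, which stand side by side in the enzyme, ran from 2.38 to 5.67, and both extremes were wild-type libraries with hydroquinone. Its mean was 3.43 ± 0.397 in untreated and 3.67 ± 1.41 in exposed wild type, and 3.69 ± 0.551 in untreated and 3.87 ± 0.186 in exposed knockout (SD, n = 4 each). For the index, each gene's log2(CPM + 1) was set relative to its mean over the libraries, and the median of 2025 genes with more than 3000 coding bases was subtracted from that of 2835 genes with fewer than 750. The index left out the 9 genes and was chosen after the data had been seen, so the p-values below do not account for that choice. Sdha (1992 coding bases) and Sdhb (846) themselves lie between the 2 length limits. Over 13 mice the log2 ratio had a Pearson's r of -0.98 with the index (permutation p = 1e-05, the smallest that 100000 draws can give; adjusted over 29 relations 2.9e-04). Spearman's rho was -0.97 (permutation p = 1e-05, adjusted 2.9e-04). Without the 2 mice farthest from the median index r was -0.94. Among libraries without a letter in their identifier r was -0.98 (n = 9, exact permutation p = 3.9e-05), and among those with one it was -0.72 (n = 7, exact permutation p = 0.0829), which did not pass. The part of RNA quality or library preparation in this ratio was not tested.

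The balance of the ligase's beta subunits moved with rod RNA in the libraries. The CPM ratio of Sucla2 to Suclg2 ran from 1.01 to 2.36, and both extremes were knockout libraries with hydroquinone, with rod scores of 3.56 and 9.70. Over 13 mice the log2 ratio had a Pearson's r of 0.84 with the rod score (permutation p = 3.3e-04, adjusted 0.00479) and a Spearman's rho of 0.89 (permutation p = 1.4e-04, adjusted 0.00164). Without the 2 mice farthest from the median score r was 0.79. It was 0.81 among libraries without a letter (n = 9, exact permutation p = 0.00858) and 0.69 among those with one (n = 7, exact permutation p = 0.0927), which did not pass. Taken alone, Suclg2 showed the relation. Its log2(CPM + 1) had an r of -0.82 with the rod score (permutation p = 7.2e-04, adjusted 0.00696; rho -0.87, permutation p = 1.7e-04, adjusted 0.00164). It was -0.79 without the 2 farthest mice, -0.68 without a letter (n = 9, exact permutation p = 0.0463) and -0.76 with one (n = 7, exact permutation p = 0.0546).

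Suclg2 was higher where the RPE score was higher, with an r of 0.81 (permutation p = 0.00102, adjusted 0.0074; rho 0.73, permutation p = 0.00563, adjusted 0.0327). This held at 0.68 without the 2 farthest mice, at 0.90 without a letter (n = 9, exact permutation p = 7.9e-04) and at 0.78 with one (n = 7, exact permutation p = 0.0401). The RPE and rod scores share libraries. Untreated knockout replicate 4 and exposed knockout replicate 1 had the highest rod scores (9.85 and 9.70) and the lowest RPE scores (9.47 and 9.36). The 2 relations of Suclg2 are therefore not separate findings. Sucla2 had an r of 0.26 with the rod score (adjusted permutation p = 0.757) and 0.05 with the RPE score (adjusted permutation p = 0.91). With the skeletal muscle score, Sucla2 had a rho of 0.74 (permutation p = 0.00535, adjusted 0.0327) but an r of 0.63 whose adjusted permutation p was 0.121. All 8 muscle markers were present in every library, with scores of 6.93 to 8.71. The other 7 genes passed with none of the 3 scores after adjustment. No other marker score was set against these genes. With the rod score as a covariate, the Suclg2 log2 fold change with hydroquinone in knockout was -0.02, against 0.16 without it.

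**Figure D4:**
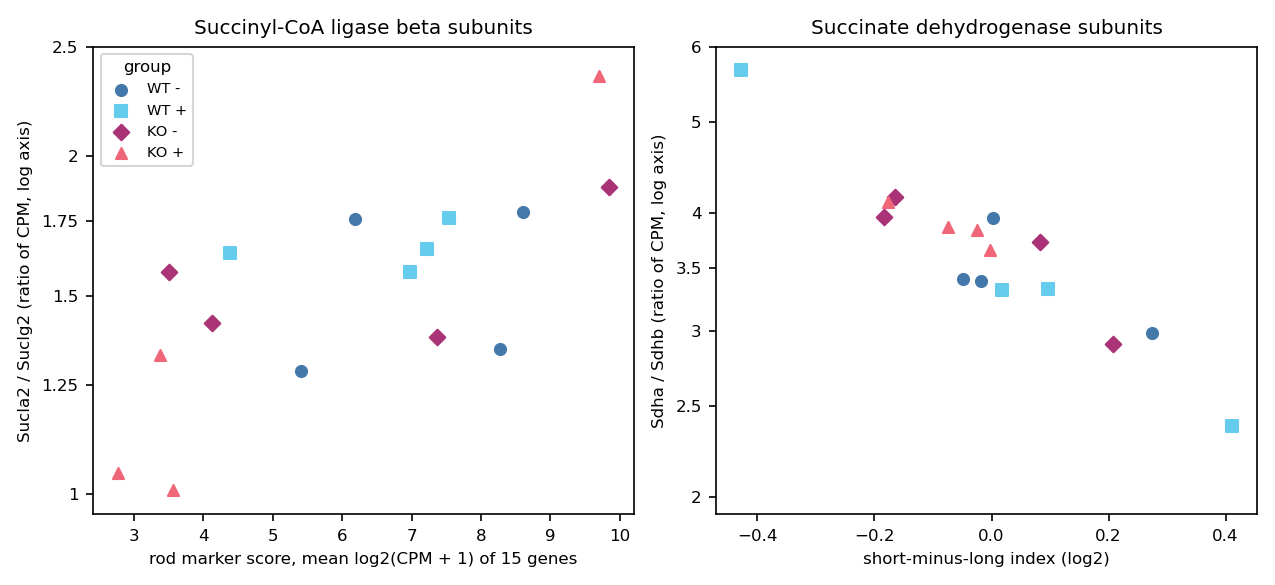
Subunit ratios against library measures, 1 point per library and 1 symbol per group. On the left, the ratio of Sucla2 to Suclg2 (log axis), from 1.01 to 2.36, is higher in libraries with a higher rod marker score; on the right, the ratio of Sdha to Sdhb (log axis), from 2.38 to 5.67, is lower in libraries with a higher short-minus-long index.

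Other genes around succinate were read from 6 lists, and 0 genes of any list passed in any comparison. For the citrate cycle, all 14 genes had a negative log2 fold change with hydroquinone in wild type (median -0.17 beside -0.00020 over all tested genes). An unadjusted p below 0.05 was found for 4 of the 14 there, and for 4.28% of all tested genes. With hydroquinone in knockout, 9 of the 14 were positive and 5 negative (median 0.02 beside -0.0014). All 14 were positive for knockout against wild type under hydroquinone (median 0.10 beside 0.01), a comparison that shares the wild-type hydroquinone libraries with the first. There, 3 of the 14 and 4.18% of all tested genes had an unadjusted p below 0.05. For the knockout untreated, 12 of the 14 were negative (median -0.05 beside 0.01). The 11 genes listed around succinate and succinyl-CoA were also all positive for the knockout under hydroquinone (median 0.16 beside 0.01). Of them, 5 were positive for the knockout untreated (median -0.02 beside 0.01). Among all tested genes, 53.1% were positive for the knockout under hydroquinone and 53.2% for the knockout untreated. Comparisons that hold the same group share its libraries. The smallest adjusted p of the citrate cycle list was 0.823 (edgeR), for Idh3a with hydroquinone averaged over genotype. Idh3a and Idh3g, subunits of isocitrate dehydrogenase, had log2 fold changes of -0.18 (SE 0.07) and -0.15 (SE 0.07) in that comparison. Among the 6 assembly genes of succinate dehydrogenase, Sdhaf1, which helps insert iron-sulphur clusters into Sdhb, stood at -0.26 (SE 0.12) and Sirt3, a mitochondrial deacetylase, at -0.16 (SE 0.08). Of the 11 genes listed around succinate and succinyl-CoA, Ogdhl, a homologue of Ogdh, stood at -0.40 (SE 0.15). Alas1, which uses succinyl-CoA for haem, stood at 0.17 (SE 0.10).

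Of the 9 dicarboxylate carriers, Slc25a13, an aspartate and glutamate carrier, stood at 0.35 (SE 0.13) and Slc13a5, a plasma membrane citrate carrier, at -0.58 (SE 0.35). Of the 7 tested genes for dioxygenases that succinate inhibits and for itaconate, Egln1, an oxygen sensor, stood at -0.12 (SE 0.07) and Kdm6b, a histone demethylase, at -0.14 (SE 0.14). Of the 7 genes for G proteins and their partners, Gnai1 and Gnai3, inhibitory alpha subunits, stood at -0.49 (SE 0.17) and 0.17 (SE 0.11). These 12 genes had the 2 smallest p-values of their lists, and none passed.

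Around the targeted locus, 40 genes lie within 1 Mb of Sucnr1, of which 9 were tested and 0 passed in any knockout comparison. Aadac, an arylacetamide deacetylase gene 41709 bases away, had the smallest p for the knockout averaged over treatment, at -1.27 on the log2 scale (SE 0.56), which did not pass (edgeR, adjusted p = 0.987). Its untreated levels were 2.70, 2.81, 1.93 and 3.35 CPM in wild type and 0, 2.06, 0.451 and 0.634 CPM in knockout. With hydroquinone Aadac was at 4.33, 4.63, 2.42 and 1.61 CPM in wild type and at 0.493, 2.96, 3.14 and 0.981 CPM in knockout. The genotypes overlapped under both treatments. P2ry14, a G protein-coupled receptor gene, stood at -0.32 (SE 0.21).

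Ranked by Pearson's r of group-centred log2(CPM + 1) with the mean of the 4 subunits over 16 libraries, the first of 15376 genes were Slc25a4 (0.92), the mitochondrial carrier of ADP and ATP, Idh3b (0.91), Atp5g3 (0.91), a subunit of ATP synthase, and Myl4 (0.90), a myosin light chain. Within the 4 subunits, Sdha had an r of -0.29 with Sdhb, -0.03 with Sdhd and 0.37 with Sdhc. A high place in this ranking therefore does not mean a likeness to Sdha itself. No such ranking was made for Sucnr1, which was below 3 counts in most libraries.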

How the data were processed

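RNA of the mouse RPE was measured in 16 libraries. The deposited values are labelled FPKM. All of them (100%) are whole numbers, and library totals differ, so the deposited values were taken as read counts per Ensembl gene, and no scaling by the authors is apparent in them. The submitters' processing notes name STAR, Cufflinks, DESeq2 and the build mm10 without versions or roles, and strand and multi-read settings are not given in the sources used here. Symbols and coordinates came from GENCODE vM21 (GRCm38), which matched 51719 of 51912 identifiers, and promoter windows from RefSeq (GRCm38.p6).

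Counts were analysed with edgeR 4.0.16 (quasi-likelihood F test, TMM scaling, group means of all 4 groups in 1 model) in R 4.3.3. The tested genes averaged 1 CPM or more, which held 99.8% of counts, with Benjamini-Hochberg adjustment over 15380 genes and a threshold of 0.05. The fit was also run on simulated counts of independent libraries. These held no eyes of the same mouse and no differing share of other tissues, so that run does not cover either feature. CPM use TMM-scaled library sizes, and standard errors follow from the F statistic. Sucnr1 was compared by exact permutation over mice (scipy 1.17.1) on log2(CPM + 1). DESeq2 1.42.0 and limma 3.58.1, with the mouse as a random block (consensus correlation -0.020), were alternatives, as were scaling, filter, summed eyes, identifier form, rod score and leaving out each library. No pair of libraries within a group was a copy. In the wild-type hydroquinone group 3 library identifiers had no letter and 1 had one, and the other groups had 2 of each.

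All 10 genes are named. Named besides are, from each list, the 2 genes with the smallest p for hydroquinone averaged over genotype when none passed. So are the 3 such genes near Sucnr1 for the knockout, and the 4 most like the mean of the 4 succinate dehydrogenase subunits. Of these, 1 result is not reported here. The genes and lists were chosen with earlier results of these data known. Relations over mice were computed with 100000 permutations, or all pairings for 9 or fewer values.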

Additional observations from a re-analysis of the deposited data

Results flagged for a closer look

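Suclg2 in untreated wild-type replicate 3 stood apart from the other libraries of its group, at 183.8 CPM against 110.3 to 112 CPM. The gap to the nearest library was 0.971 of the range of the group, above the critical value of 0.829 for 4 libraries. This was the 1 such value among 44 sets of 4 libraries searched, where chance gives about 1 in 20, or 2.2. The same library had an RPE score of 10.2, the highest of its group, and a rod score of 5.399, the lowest of its group. It also had the highest Sdha level of all libraries, 547 CPM. The hydroquinone difference of Suclg2 in wild type was -0.22 on the log2 scale with this library and -0.0067 without it, and it passed with neither.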

How the results depend on the processing

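Of the 9 metabolic genes, 0 passed in any of the 7 comparisons under any alternative run: median-of-ratios scaling, no filter on low counts, DESeq2, eyes of a mouse summed, limma with a random block for the mouse, the identifier form or the rod score as a covariate, only libraries without or with a letter, and leaving out each of the 16 libraries. Their smallest adjusted p was 0.367, for knockout against wild type under hydroquinone. Sucnr1 passed the test under no setting, of which the one with untreated mice (3 against 2) was too small to pass. Among exposed mice (4 against 4) only 1 mouse of each genotype held a count, so no split of these values could pass either. Leaving out 1 library put the Sucnr1 difference between -0.122 and -0.0689 (-0.423 with a pseudocount of 0.1, -0.282 among untreated mice, -0.00352 among exposed mice). Counts over all genes depended on the setting. Hydroquinone in wild type called 1 gene, and 20 with DESeq2, 4 with the rod score, 3 with the mouse block, 2 with median-of-ratios scaling or the identifier form and 0 among libraries with a letter. In knockout it called 7, and 14 with DESeq2, 4 with the identifier form, 3 with summed eyes and 1 and 0 without and with a letter. Averaged, it called 13, and 39 with DESeq2, 6 with summed eyes and 2 and 0 without and with a letter. Leaving out 1 library gave 1 to 3, 3 to 11 and 7 to 15, the most in each case without exposed knockout replicate 1. For knockout under hydroquinone DESeq2 called 3.

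Small log2 fold changes changed sign, none of them called, and the cause was not tested. Among libraries with a letter, exposed wild type is a single library, assumed to vary like the other groups. With hydroquinone averaged over genotype, libraries with a letter gave 0.0608 for Sdhc, 0.0137 for Sdhd, 0.0654 for Suclg1, 0.213 for Suclg2 and 0.0326 for Sucla2, summed eyes gave 0.0161 for Suclg1, and Ogdh was -0.0501 without a letter and -0.00719 with the rod score. Kdm6b was 0.201 without a letter. For the knockout averaged over treatment, libraries without a letter gave -0.0436 for Sdha, -0.0331 for Sdhd, -0.0369 for Suclg2, 0.0687 for Slc25a10 and -0.0242 for Ogdh. There, Sdhd was -0.0070 with summed eyes and -0.0028 with the rod score, Suclg1 -0.0088 with a letter, Suclg2 -0.0148 with the rod score and Slc25a10 0.0055 without a filter. Suclg2 with hydroquinone was 0.143 in wild type with a letter, and in knockout -0.00117 without a letter and -0.0184 with the rod score. Leaving out 1 library, the hydroquinone average ran from -0.0768 to 0.00531 for Sdhc, -0.0545 to 0.0137 for Suclg1, -0.0977 to 0.0762 for Suclg2 and -0.0386 to 0.0548 for Ogdh, and the knockout average from -0.0144 to 0.0724 for Sdhd, -0.00789 to 0.057 for Suclg1, -0.0944 to 0.0121 for Sucla2 and -0.0686 to 0.0612 for Slc25a10. The median over the 9 genes with hydroquinone averaged was 0.06 among libraries with a letter, and 1 library left out put it at -0.08 to -0.02 (hydroquinone in knockout -0.0034 to 0.10, knockout untreated -0.10 to 0.01, knockout averaged -0.0079 to 0.06). No paired analysis was possible because no mouse named in the titles has eyes in more than 1 group, and numbers given in accession order pair nothing. Depth limits Sucnr1 alone among the 10 genes.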

Other observations

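Acod1, which makes itaconate, an inhibitor of succinate dehydrogenase, in activated macrophages, averaged below 1 CPM and was therefore not among the tested genes. It was singled out after its values were seen. Its levels were 0.202, 0.235, 0 and 0.392 CPM in untreated wild type and 0.679, 0.575, 0.555 and 2.08 CPM in exposed wild type. Those groups did not overlap, which was also true of 2.92% of all tested genes in that comparison. In knockout Acod1 was at 0.191, 0.229, 0.29 and 0.0746 CPM untreated and at 0.591, 0.254, 0.971 and 0.256 CPM with hydroquinone, and these groups overlapped. In the edgeR fit without a filter on low counts, the log2 fold change of Acod1 with hydroquinone was 2.23 (SE 0.83, adjusted p = 0.851) in wild type and 1.39 (SE 0.82, adjusted p = 0.912) in knockout, so neither passed. The interaction was -0.84 (SE 1.16, adjusted p = 1.00). All 8 macrophage markers were present in every library, with summed levels of 1272 to 2354 CPM in untreated wild type, 1876 to 3652 in exposed wild type, 1083 to 2582 in untreated knockout and 1954 to 2940 in exposed knockout. Their part in the Acod1 values was not tested.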
